A study of Mus musculus with 4 samples.

Results

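The heavy-chain V gene repertoire was read from RNA-sequencing of lymphoma cells of 2 λ-MYC Tom+/ki mice, as the level of every functional heavy-chain V gene. The members were chosen by annotation alone, as the genes of type IG_V_gene whose symbol starts with Ighv in GENCODE M21, and they were 113 of the 34866 genes listed. A further 70 Ighv pseudogenes and 2 Ighv entries of another V type were left out. Both mice were λ-MYC+/TG and R26tdTom+/ki and carried a Cre knock-in allele, in all fractions alike. The transgene places a human MYC gene under regulatory sequences of the λ light chain, and cells in which Cre has been active, and their descendants, are labelled by Tomato (Tom). Spleen cells of each mouse were sorted into B220+ IgM+ Tom- and B220+ IgM+ Tom+ fractions, which gave 4 libraries, 1 of each fraction for tumor #1 and for tumor #2, from mice that had become sick with IgM+Tom+ tumors. The ages of the 2 mice are not given in the sources used here. With 1 mouse per tumor, the Tom fractions are compared over n = 2 pairs and a difference between the tumors has no replicate check. Values are in TPM, transcript abundances that are scaled to transcript length and sum to 1000000 in each library, but the number of reads behind them is unknown.

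A B cell assembles the variable part of its heavy chain by joining a V, a D and a J segment, and the successful rearrangement normally excludes the other allele, so that 1 functional heavy chain is made per cell. Descendants of a cell inherit its rearrangement, and a population that stems from few cells therefore transcribes few V genes, whereas a mixed population of mature B cells uses many families. In the mouse the V genes lie on chromosome 12 in 16 families. The families of the Ighv5 and Ighv2 groups lie mostly near the D segments and the large Ighv1 family lies mostly far from them. Rearranged V regions of germinal center B cells gain point mutations by somatic hypermutation, which is frequent at particular short motifs, of which AGCT is one.

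The 5 genes with at least 5% of the V transcripts of a library are shown by their germline V regions, since the results turn on these genes. The sequences are those of the GENCODE M21 transcripts on GRCm38 and are not reads of the tumors. Each starts after the 11 bases of the V exon that end the leader, is written 5′ to 3′ on the coding strand, which is the minus strand of chromosome 12, and has AGCT in capitals.
Ighv1-50: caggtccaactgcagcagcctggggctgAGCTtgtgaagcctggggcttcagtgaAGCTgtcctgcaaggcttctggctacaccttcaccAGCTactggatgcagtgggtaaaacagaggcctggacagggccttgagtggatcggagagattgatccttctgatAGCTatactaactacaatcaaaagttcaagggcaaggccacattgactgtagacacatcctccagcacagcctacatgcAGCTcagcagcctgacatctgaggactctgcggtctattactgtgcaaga
Ighv3-6: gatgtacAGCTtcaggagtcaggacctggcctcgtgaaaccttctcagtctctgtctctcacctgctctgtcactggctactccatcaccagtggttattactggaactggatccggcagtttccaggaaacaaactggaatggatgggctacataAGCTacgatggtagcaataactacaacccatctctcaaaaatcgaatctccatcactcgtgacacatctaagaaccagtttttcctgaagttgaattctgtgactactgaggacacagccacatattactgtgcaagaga
Ighv2-9: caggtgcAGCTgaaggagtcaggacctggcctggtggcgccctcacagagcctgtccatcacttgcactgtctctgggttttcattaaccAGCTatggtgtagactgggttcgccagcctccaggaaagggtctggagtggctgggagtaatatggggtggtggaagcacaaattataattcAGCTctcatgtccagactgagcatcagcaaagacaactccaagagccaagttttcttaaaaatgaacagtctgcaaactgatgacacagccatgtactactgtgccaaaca
Ighv12-3: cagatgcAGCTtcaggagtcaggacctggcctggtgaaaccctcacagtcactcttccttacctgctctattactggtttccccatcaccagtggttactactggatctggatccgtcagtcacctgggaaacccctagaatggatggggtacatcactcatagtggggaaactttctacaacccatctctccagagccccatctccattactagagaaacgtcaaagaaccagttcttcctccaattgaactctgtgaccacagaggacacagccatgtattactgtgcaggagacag
Ighv1-82: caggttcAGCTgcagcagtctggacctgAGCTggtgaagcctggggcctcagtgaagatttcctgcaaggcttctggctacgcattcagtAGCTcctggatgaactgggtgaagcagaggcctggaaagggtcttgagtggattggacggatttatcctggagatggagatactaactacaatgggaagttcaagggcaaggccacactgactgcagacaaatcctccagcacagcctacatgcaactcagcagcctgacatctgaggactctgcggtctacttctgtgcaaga
These stretches lie at chr12:115119748-115120041 (Ighv1-50), chr12:114288152-114288447 (Ighv3-6), chr12:113879096-113879388 (Ighv2-9), chr12:114366521-114366819 (Ighv12-3) and chr12:115952538-115952831 (Ighv1-82), each in the second exon of its gene. AGCT, which reads the same on both strands, occurred 5 times in Ighv1-50, 3 times in Ighv2-9 and in Ighv1-82, 2 times in Ighv3-6 and 1 time in Ighv12-3. Of all 113 V regions, 109 (96.5%) held it at least 1 time, with a median of 3 and a maximum of 7. The pairs of genes that led each tumor were not close relatives, since Ighv1-50 and Ighv3-6 were 60.9% identical over these stretches and Ighv2-9 and Ighv12-3 were 67.1% identical.

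In both Tom- libraries nearly all heavy-chain V transcripts came from a pair of genes, and the pair differed between the tumors. In tumor #1, Ighv1-50 held 86.0% of the summed Ighv TPM of Tom- cells and 81.1% of that of Tom+ cells. Ighv3-6 held 12.5% and 16.0%, so the pair made up 98.5% and 97.1%. In tumor #2, Ighv2-9 held 82.2% in Tom- cells and 42.4% in Tom+ cells. Ighv12-3, best known from B-1 cells that bind phosphatidylcholine, held 16.2% and 8.36%, and this pair went from 98.4% in Tom- to 50.7% in Tom+ cells. The Tom+ library of tumor #2 thus stood apart from the other 3, each of which had 2 genes with at least 1% of the summed Ighv TPM, whereas it had 14.

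**Figure D1:**
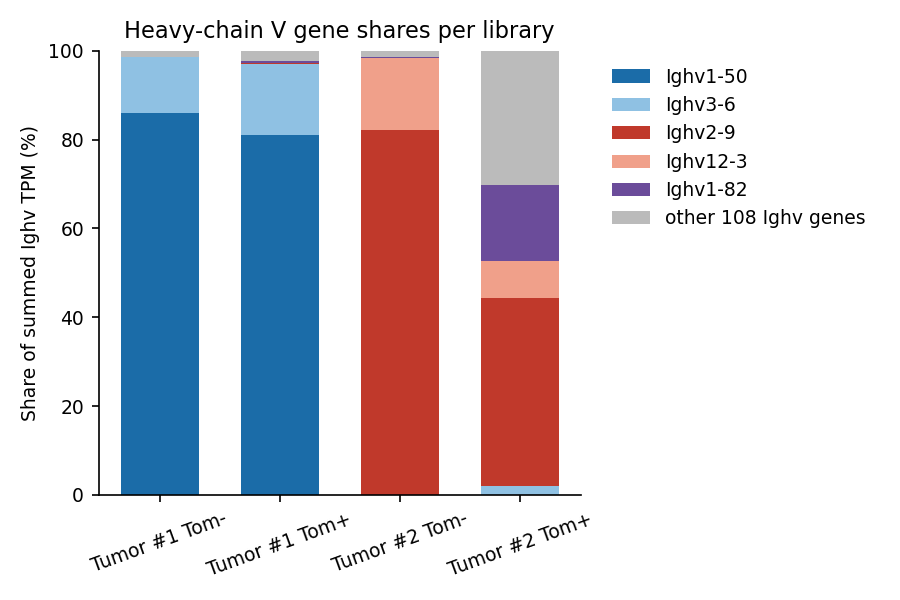
Stacked bars give the share of each of 5 Ighv genes in the summed Ighv TPM (%) in each of the 4 libraries, and grey stands for the other 108 genes. A single pair of genes fills over 97% of the bar in 3 libraries, and in Tom+ cells of tumor #2 Ighv1-82 (17.0%) and the grey part are visible beside Ighv2-9 and Ighv12-3.

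Levels in TPM gave another view of the same pairs. Ighv1-50 was at 1172 TPM in Tom- and 958 TPM in Tom+ cells of tumor #1, and it was at 1.12 TPM in Tom- and listed at 0 in Tom+ cells of tumor #2. Ighv3-6 was at 171 and 189 TPM in tumor #1, was listed at 0 in Tom- cells of tumor #2 and was at 115 TPM in Tom+ cells of tumor #2. Ighv1-50 was thus high in 1 tumor only, while Ighv3-6 was also found in Tom+ cells of the other. Ighv2-9 was listed at 0 in Tom- cells and was at 1.80 TPM in Tom+ cells of tumor #1, against 2365 and 2522 TPM in the Tom- and Tom+ libraries of tumor #2. Ighv12-3 was listed at 0 and at 0.652 TPM in tumor #1 and was at 466 and 498 TPM in tumor #2. The levels of the pair of tumor #2 were therefore nearly the same in both fractions, with log2(TPM + 1) higher in Tom+ cells by 0.093 for Ighv2-9 and 0.094 for Ighv12-3, although their shares were lower in Tom+ cells. The ratio of Ighv2-9 to Ighv12-3 was 5.07 in both fractions of tumor #2, and the ratio of Ighv1-50 to Ighv3-6 was 6.87 in Tom- and 5.07 in Tom+ cells of tumor #1.

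The number of effective V genes, the inverse of the sum of squared shares, equals 1 when a single gene holds everything. It was 1.32 in Tom- and 1.46 in Tom+ cells of tumor #1, and 1.42 in Tom- and 4.52 in Tom+ cells of tumor #2. It was higher in Tom+ cells of both tumors, by 1.62 ± 2.09 (SD, n = 2), and the share of the leading gene was lower in Tom+ cells of both, by a mean difference of -22.3 ± 24.7 percentage points (SD, n = 2). In each case the exact two-sided permutation test within pairs gave p = 0.5, the smallest that 2 pairs allow. Both differences were smaller than their SD and rested mostly on tumor #2, with -4.85 and -39.8 percentage points in tumors #1 and #2 for the leading gene. The shares of Tom- and Tom+ cells overlapped by 94.1% in tumor #1 and 51.8% in tumor #2, taking for each gene the smaller of its 2 shares. Between the tumors they overlapped by 0.109% for Tom- cells and 3.26% for Tom+ cells.

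In Tom+ cells of tumor #2, many V genes were added on top of the leading pair. The summed Ighv TPM was 2877 in Tom- and 5951 in Tom+ cells, a fold of 2.07, and 93.9% of the increase came from genes outside the pair. These genes summed to 45.4 TPM in Tom- and 2931 TPM in Tom+ cells, a fold of 64.6. In tumor #1 the genes outside the pair summed to 20.6 TPM in Tom- and 34.0 TPM in Tom+ cells, and the summed Ighv TPM was 1364 and 1181. Outside its pair, no library but Tom+ of tumor #2 had a V gene at 10 TPM or more, and that library had 28. The direction of the summed TPM thus differed between the tumors, with a mean log2 difference of 0.42 ± 0.89 (SD, n = 2, exact permutation test within pairs, two-sided p = 1). In bulk libraries, fewer cells that use a V gene and less V transcript per cell cannot be told apart.

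Ighv1-82, a member of the Ighv1 family near the distal end of the locus, was the most abundant of the added genes. It was listed at 0 in Tom- and was at 3.65 TPM in Tom+ cells of tumor #1, and it was at 2.68 TPM in Tom- and 1014 TPM in Tom+ cells of tumor #2. It was higher in Tom+ cells of both tumors, but by far more in tumor #2, where it held 17.0% of the repertoire. The remaining genes outside the pair summed to 1917 TPM in this library, none above 169 TPM, and 27 of them were at 10 TPM or more in 10 of the 16 families. Ighv3-8 was highest among these, listed at 0 in both Tom- libraries and with 1.87 TPM in the Tom+ library of tumor #1 and 169 TPM in that of tumor #2. Ighv1-85 (166 TPM), Ighv5-17 (160 TPM), Ighv13-2 (139 TPM) and Ighv1-15 (134 TPM) were listed at 0 in the other 3 libraries. Ighv7-3 had 2.12 TPM (Tom-) and 128 TPM (Tom+) in tumor #2 and was listed at 0 in tumor #1. Ighv5-16 was at 109 TPM in the Tom+ library of tumor #2, with 0.623 and 1.34 TPM in the libraries of tumor #1 and 0 in the fourth. Others in the same library were Ighv1-62-2 (122 TPM), Ighv1-26 (79.3 TPM), Ighv2-3 (60.5 TPM), Ighv1-81 (58.3 TPM), Ighv2-5 (56.5 TPM), Ighv14-4 (48.6 TPM), Ighv1-76 (44.5 TPM) and Ighv9-2 (40.4 TPM), none of them above 3.36 TPM in another library. In all, 21 V genes were above 0 in this library alone. Without Ighv1-82, no single gene dominated the added genes, and their effective number was 18.0.

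By a difference of at least 1 in log2(TPM + 1), 38 of the 113 V genes (33.6%) were higher in Tom+ than in Tom- cells of tumor #2, against a background of 2.39% of all genes listed. Of the 38, 30 were listed at 0 in Tom- cells. In the same tumor 6 V genes (5.31%) were lower in Tom+ cells, against 2.44% of all genes, and none of them was above 6.63 TPM in Tom- cells. In tumor #1, 7 V genes (6.19%) were higher, against 1.45% of all genes, and 7 (6.19%) were lower, against 1.33%. The 7 that were higher were at most at 8.64 TPM in Tom+ cells, a value reached by Ighv1-42, and the 7 that were lower were at most at 1.94 TPM in Tom- cells. With 1 library on each side these counts have no replicate check, and whether the tumors differ in them was not tested. The median difference over the 113 genes was 0 in both tumors, as it was over all genes, and 54 of the 113 were listed at 0 in every library.

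**Figure D2:**
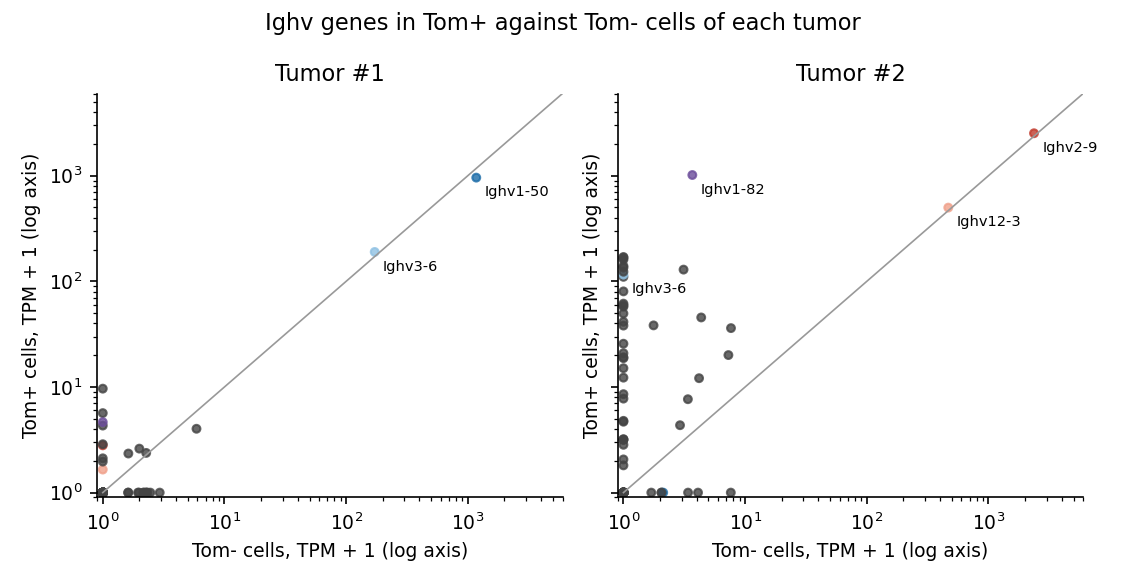
Each point is 1 of the 113 Ighv genes, with TPM + 1 in Tom- cells on the horizontal axis and in Tom+ cells on the vertical axis, both logarithmic, for tumor #1 (left) and tumor #2 (right). The line marks equal levels. In tumor #1 genes outside the leading pair stay under 10 TPM, and in tumor #2 a column of genes near 0 TPM in Tom- cells extends to 1014 TPM in Tom+ cells.

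Over both tumors, 19 of the 113 V genes passed the limit for testing, which asked for 1 TPM or more in at least 2 libraries, and Tom+ was compared with Tom- by limma with the tumor as a block. None passed an adjusted p-value of 0.05 (0% of all 11339 genes did), and among them limma's smallest adjusted p-value was 0.936. At an unadjusted p-value under 0.05, 3 were higher in Tom+ cells, against 2.04% of all genes, and 0 were lower, against 2.64%. Of the 19, 17 had a higher and 2 a lower fitted level in Tom+ cells, but 9 were higher and 1 lower in both tumors, and without the Tom+ library of tumor #2 and without the block 8 were higher and 11 lower. A gene could pass the limit through the Tom+ libraries, so these directions and the 3 genes are a description and are not read against the share of all genes. Genes that are above 1 TPM in a single library, which includes most of those added in Tom+ cells of tumor #2, could not enter this test. The 3 were Ighv1-18, Ighv1-64 and Ighv1-82. Ighv1-18 was listed at 0 in both Tom- libraries, against 4.66 TPM (tumor #1) and 19.9 TPM (tumor #2) in the Tom+ libraries, so that it entered the test only through the group in which it is high, and no fold is given. Ighv1-64 was listed at 0 and at 1.11 TPM in the Tom- and Tom+ libraries of tumor #1, against 6.29 and 19.0 TPM in tumor #2 (limma estimate 1.27 on the log2 scale, SE 0.24, adjusted p = 0.936). For Ighv1-82 the limma estimate was 5.16 on the log2 scale (SE 1.65, adjusted p = 0.936). In each of the 3, both Tom+ libraries were above the Tom- library of the same mouse, which a choice by the paired test favors and which is no added evidence. Only Ighv1-50 and Ighv1-84 had a negative log2 fold change, -0.69 (SE 0.26) and -0.28 (SE 0.28). Ighv1-84 was at 4.89 and 3.02 TPM in the Tom- and Tom+ libraries of tumor #1 and was listed at 0 in tumor #2.

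Between the tumors, 9 of the 113 V genes (7.96%) were higher in tumor #2 by at least 1 in log2(TPM + 1) in both the Tom- and the Tom+ pair, against 3.85% of all genes listed, and 2 (1.77%) were lower, against 1.01%. Among genes that passed the limit for testing, 9 of 19 V genes (47.4%) were higher, against 11.8% of all tested, and 2 of 19 (10.5%) were lower, against 3.1%, and a gene could pass through the libraries of tumor #2 alone. In the Tom- pair alone 14 V genes (12.4%) were higher in tumor #2, against 6.96% of all genes listed. In the Tom+ pair alone 40 (35.4%) were, against 7.12%, and this count includes the genes added in the Tom+ library of tumor #2. Ighv2-9 differed by 11.21 in Tom- and 9.81 in Tom+ cells, and Ighv12-3 by 8.87 and 8.24. The others of the 9 were Ighv1-82, Ighv1-64, Ighv4-1, Ighv7-3, Ighv6-3, Ighv6-4 and Ighv1-76, all under 10 TPM in Tom- cells of tumor #2. In the other direction Ighv1-50 differed by -9.11 and -9.91, and the second gene was Ighv1-84. These differences describe 2 mice and were not tested.

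**Figure D3:**
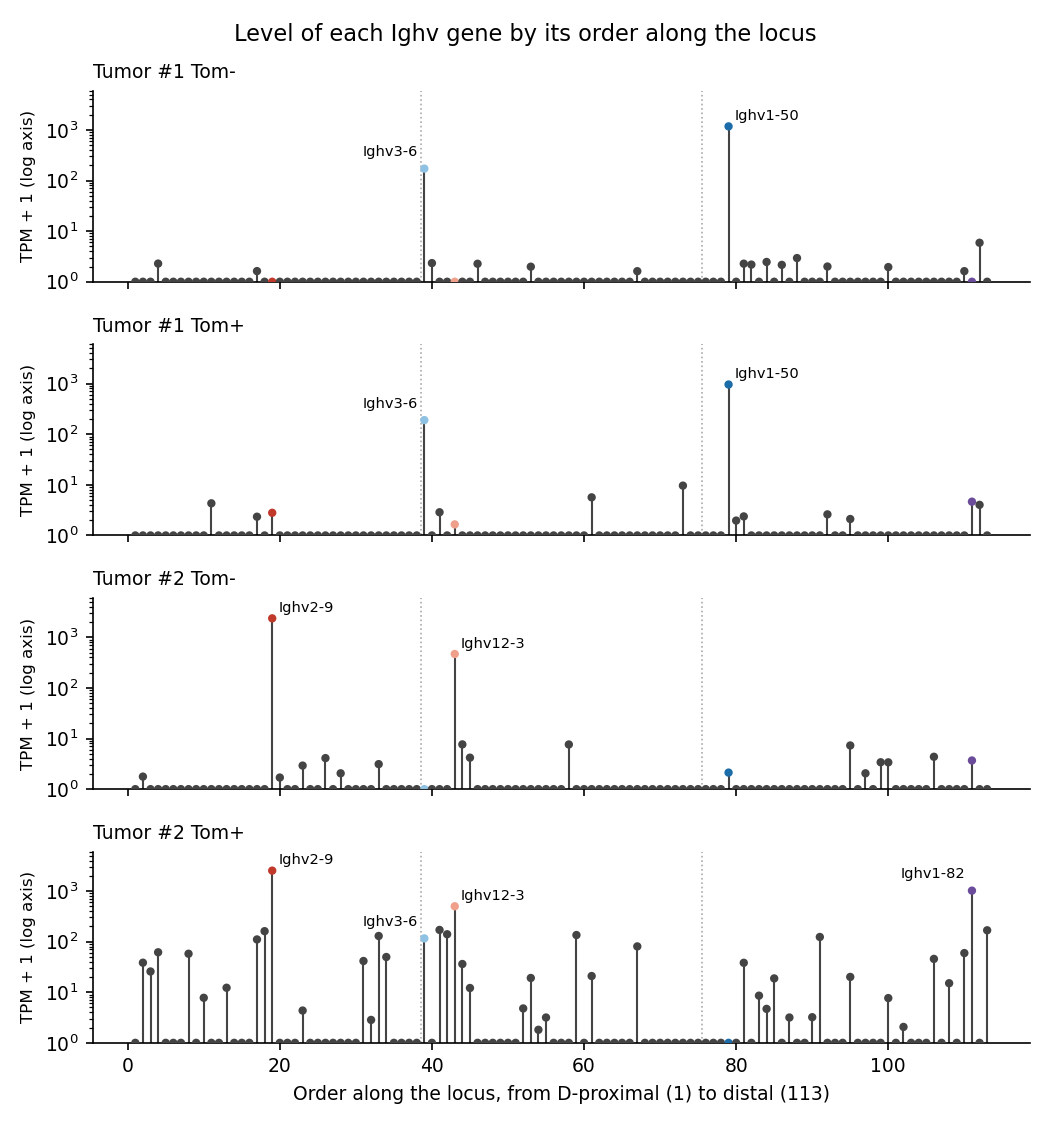
Vertical lines give TPM + 1 (log axis) of each of the 113 Ighv genes in order along the locus, from the gene nearest to the D segments (1) to the most distal (113), 1 panel per library, with dotted lines between 3 parts of the locus. Single peaks above 100 TPM stand at 2 positions in 3 libraries, and Tom+ cells of tumor #2 have genes above 10 TPM along the whole locus.

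The V genes span 2422 kb of chromosome 12. The leading pair of tumor #1 lies at positions 79 (Ighv1-50) and 39 (Ighv3-6) of 113 from the D segments, and that of tumor #2 at positions 19 (Ighv2-9) and 43 (Ighv12-3). Accordingly, the 38 most distal V genes held 87.0% and 82.1% of the summed Ighv TPM in the Tom- and Tom+ libraries of tumor #1, and the 38 genes nearest to the D segments held 82.6% and 53.9% in tumor #2. These shares mainly restate which single gene led. The V genes at 10 TPM or more in Tom+ cells of tumor #2 are counted here with the leading pair. Of them, 11 were among the 38 D-proximal genes, 10 among the 37 between and 9 among the 38 distal genes. Without the leading pair and Ighv1-82, the D-proximal, middle and distal genes held 35.9%, 37.9% and 26.2% of the TPM in that library. With Ighv1-82 kept and only the pair left out, these parts held 23.5%, 24.8% and 51.7% in the same order. The added genes thus came from each part of the locus, with the distal part ahead through Ighv1-82. At its ends, Ighv5-2, the functional V gene nearest to the D segments and one used early in ontogeny, was listed at 0 in every library, and Ighv1-85, the most distal, was found only in Tom+ cells of tumor #2. Among V genes known from textbook responses, Ighv11-2, the other gene of phosphatidylcholine-binding B-1 cells, was listed at 0 in every library. Ighv7-1, of the phosphorylcholine response, was at 0.694 TPM in Tom- cells of tumor #2 and at 0 elsewhere. Ighv1-72, of the response to the hapten NP, was at 1.06 TPM in Tom+ cells of tumor #2 and at 0 elsewhere.

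By family, Ighv1, with 53 of the 113 genes (46.9%), held 86.8% and 83.2% of the summed Ighv TPM in the Tom- and Tom+ libraries of tumor #1, and 0.818% and 29.4% in tumor #2. Ighv2, with 9 genes, held 82.2% and 45.3% in tumor #2 and less than 1% in both libraries of tumor #1. Apart from the Ighv1 shares in tumor #2 and the Ighv2 shares in tumor #1, these values were set by the leading gene of the library. In Tom+ cells of tumor #2, the V genes outside the pair came to 59.6% from Ighv1, and to 38.3% with Ighv1-82 left out as well, next to 46.9% of the genes. Next among the genes outside the pair were Ighv5 (10.02%), Ighv3 (9.68%), Ighv2 (5.88%), Ighv13 (4.73%) and Ighv7 (4.37%). Ighv8, which holds 9 genes, mostly in the distal part of the locus, had 0.227%, and Ighv11 and Ighv16 were listed at 0.

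**Figure D4:**
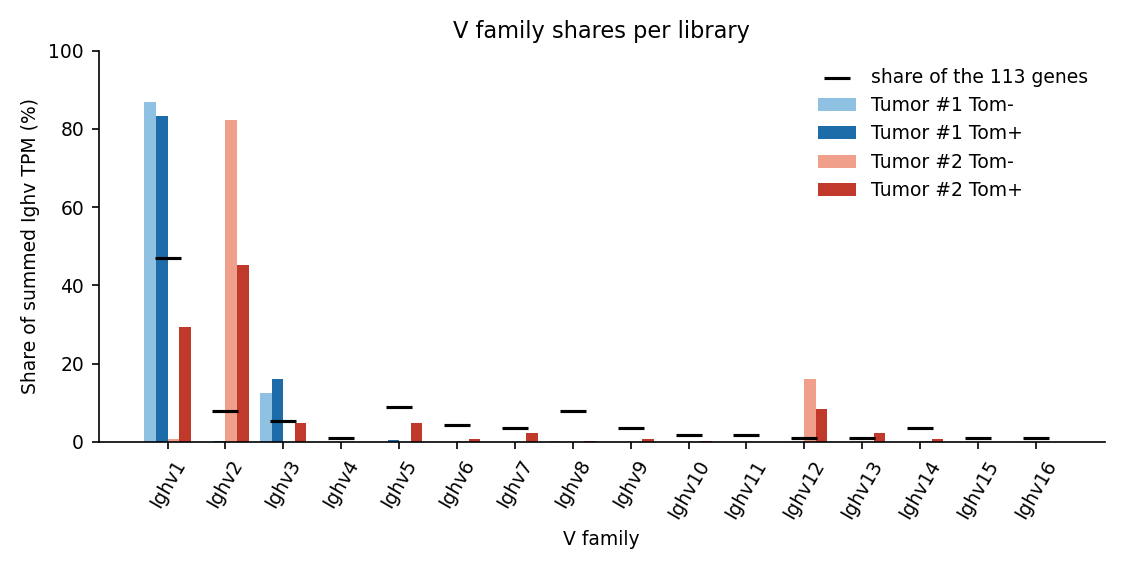
Bars give the share of each V family in the summed Ighv TPM (%) in the 4 libraries, and black dashes give the share of the 113 genes that belong to the family. Ighv1 leads in tumor #1, Ighv2 leads in tumor #2, and Tom+ cells of tumor #2 spread over more families than the other 3 libraries.

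Reads of 60 bases cannot always be assigned to a single V gene, because V genes of a family are similar. The V region closest to that of each gene was a median of 95.02% identical, and 88 of the 113 genes shared at least 1 window of 60 bases with a transcript of another gene. For Ighv1-50, 151 of 331 windows (45.6%) were shared, and its closest relative, Ighv1-69 (97.3% identical), was at 2.40 TPM in Tom- cells of tumor #2 and listed at 0 elsewhere. For Ighv2-9 the share was 12.5% and for Ighv1-82 it was 4.89%, and their closest relatives, Ighv2-6-8 and Ighv1-80, were listed at 0 in every library. Ighv3-6 and Ighv12-3 shared no window with another transcript, so unmutated reads of the full 60 bases need no such assignment for them. Reads were trimmed and some can be shorter, and shorter windows were not compared. For Ighv1-62-2, 91.5% of windows were shared and its V region was 100% identical to that of Ighv1-71, which was listed at 0 in every library, so the 122 TPM given above cannot be assigned to one of the pair. For Ighv1-72, 88.1% of windows were shared, and its low value is uncertain as well.

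The heavy chain reaches the surface with partners, and these were read beside the V genes. Ighm, the constant region of IgM, had 1334 TPM (Tom-) and 1255 TPM (Tom+) in tumor #1, and 2191 TPM and 3652 TPM in the same order in tumor #2. The ratio of the summed Ighv TPM to Ighm was 1.02 and 0.941 in tumor #1 and 1.31 and 1.63 in tumor #2. The 4 Ighj segments summed to 10831 and 9130 TPM in tumor #1 and to 11997 and 25563 TPM in tumor #2. These were the same directions as the V genes. The sums were far above those of the V genes, so V, J and constant levels are compared between libraries only. The 13 D segments were listed at 0 in every library. Whether reads could be assigned to such segments was not tested, so the 0 is not read as absence. Of the 6 receptor partners, Cd79a, Cd79b and Vpreb3 were tested, each had a lower TPM in both Tom+ libraries, and 0 passed an adjusted p-value of 0.05 from limma, with Vpreb3 at an unadjusted p-value of 0.0292 from limma, while of the surrogate light chain genes Igll1 and Vpreb2 were listed at 0 and Vpreb1 was at most at 0.306 TPM. Of 23 genes for V(D)J recombination and the V locus, 22 were tested, 9 were lower in both Tom+ libraries than in their Tom- partners and 2 higher in both, and 0 passed an adjusted p-value of 0.05 from limma. The only one with an unadjusted p-value under 0.05 was Pou2f1, an octamer-binding factor, with 14.3 TPM in Tom- against 4.68 TPM in Tom+ cells for tumor #1 and 28.6 TPM against 16.5 TPM for tumor #2 (limma estimate -1.10 on the log2 scale, SE 0.25, adjusted p = 0.936). The median log2 difference of this list was -0.053 in tumor #1 and -0.23 in tumor #2, against -0.0029 and -0.057 over all genes tested.

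The sorted cells carried B cell transcripts, with all 7 B cell markers above 0 and summing to between 2010 and 5620 TPM in every library. Of these markers, 6 of 7 had a lower TPM in Tom+ cells of both tumors and 0 passed an adjusted p-value of 0.05 from limma, and the exception, Ighm, accounts for the higher sum in Tom+ cells of tumor #2. Of the 7 T cell markers 0 to 3 were at 0 in a library, of the 7 myeloid markers 1 to 4, and of the 5 erythroid markers 3 to 4. The T cell markers summed to between 5.74 and 18.9 TPM, the myeloid markers to between 0.593 and 8.77 TPM and the erythroid markers to between 0.523 and 21.1 TPM. The 7 plasma cell markers summed to 181 TPM (Tom-) and 180 TPM (Tom+) in tumor #1, and to 132 TPM and 344 TPM in tumor #2. Jchain alone made up most of the rise in tumor #2. Jchain, which joins subunits of polymeric antibodies, was at 1.24 TPM in Tom- and 209 TPM in Tom+ cells of tumor #2, against 0.330 and 1.72 TPM in tumor #1, so that it moved with the added V genes. Igha was at 0.207 TPM in Tom- and 31.0 TPM in Tom+ cells of tumor #2. Of the other plasma cell markers in that tumor, Mzb1 went from 94.8 to 80.6 TPM, Xbp1 from 18.7 to 21.2 TPM and Irf4 from 14.6 to 29.4 TPM. Derl3 went from 2.80 to 2.93 TPM, Sdc1 from 0 to 0.428 TPM and Prdm1 from 0.105 to 0.570 TPM. The part of these genes' source cells in the added V genes was not tested.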

How the data were processed

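The authors sequenced single reads of 60 bases, made with CASAVA 1.8 per the labels, trimmed them with Cutadapt and quantified them with Salmon (1.9 per the labels) on the mouse transcriptome of GRCm38. They deposited 1 table of TPM for 34866 genes and 4 libraries. Each column sums to 1000000 TPM, so read depth is unknown and no counting interval is given. How transcripts were summed to genes is not given in the sources used here.

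GENCODE M21 (GRCm38) holds 34652 of the 34866 identifiers and gave gene types, positions and sequences. The share of a V gene is its TPM over the summed TPM of the 113 Ighv genes, which no scaling of a library changes. Families are the number after Ighv, and the locus was split by order into D-proximal, middle and distal genes (38, 37 and 38). Identity was taken from global alignments of V regions.

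Tom+ was compared with Tom- by limma 3.58.1 in R 4.3.3 on log2(TPM + 1), a scale on which changes at low levels look smaller, over 11339 genes with at least 1 TPM in at least 2 libraries, with the tumor as a block, a variance trend, 1 residual degree of freedom and Benjamini-Hochberg adjustment. By the titles, both fractions of a tumor were sorted from 1 mouse, and their deviations from the group means correlated with r = 0.626 across genes. The p-values measure the spread between these samples alone. The full name of the Cre allele is not reported here. The study's edgeR test needs counts and was not run. Tables were made with Python 3.11.15, pandas 2.3.3, numpy 2.4.6 and matplotlib 3.10.9.

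The genes to name were those with at least 5% of the summed Ighv TPM in a library, the 3 with the smallest p-values in each direction of the Tom comparison (only 2 were lower), the ends of the locus and 5 V genes with a textbook role. Ighv3-8, Ighv5-17, Ighv13-2, Ighv1-15, Ighv7-3, Ighv1-42, Ighv5-16, Ighv1-62-2, Ighv1-26, Ighv2-3, Ighv1-81, Ighv2-5, Ighv14-4, Ighv1-76, Ighv9-2, Ighv4-1, Ighv6-3, Ighv6-4, Pou2f1, Vpreb3 and Igha were named after their values were seen. Members and lists were chosen with earlier results of these data known. Alternatives were no block, other pseudocounts, filters and scalings, no variance trend, shares of TPM multiplied by exon length, pseudogenes added, genes under 1 TPM set to 0, similar genes merged, other measures of evenness and overlap, and each tumor left out. Leaving out single libraries and leaving out the leading pair were added after seeing the data.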

Additional observations from a re-analysis of the deposited data

Results flagged for a closer look

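The summed Ighv TPM moved in opposite directions in the tumors between Tom- and Tom+ cells, with a log2 difference of -0.21 in tumor #1 and 1.05 in tumor #2. Each tumor has 1 library per fraction, so the difference between the tumors was not tested. Without the leading pair of each tumor the sums were higher in Tom+ cells of both, by a fold of 1.65 in tumor #1 and 64.6 in tumor #2. The fold in tumor #1 rests on low values, 20.6 TPM in Tom- and 34.0 TPM in Tom+ cells. There 15 genes outside the pair were above 0 in Tom- and 13 in Tom+ cells, none above 8.64 TPM.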

How the results depend on the processing

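The count of V genes past an adjusted p-value of 0.05 stayed at 0 in every alternative of limma's test, with the smallest adjusted p-value of a V gene between 0.546 (without the Tom+ library of tumor #1 and without the block) and 1 (no filter). Without the replicate block the count was 0, the genes at an unadjusted p-value under 0.05 were 66 higher and 74 lower in place of 231 and 299 (1 V gene higher in place of 3), and the mean log2 difference of the summed Ighv TPM was 0.42. With 1 tumor left out no residual degree of freedom remains, so that fit gave no test. Over the tumors left out in turn, the difference of the summed Ighv TPM ranged from -0.21 to 1.05 and changed sign without tumor #2, that of the leading share ranged from -39.8 to -4.85 percentage points, that of the effective number from 0.138 to 3.09, and the overlap of Tom- and Tom+ shares from 51.8% to 94.1%. The Ighv1 family's mean share ranged from 15.1% to 85.0% and that of the distal genes from 13.1% to 84.6%. Spearman's rho, which also weighs genes near 0, had a mean of 0.278 ± 0.026 (SD, n = 2) between Tom- and Tom+ cells. This rho, taken within each tumor, was thus similar and low in both, unlike the overlap of shares. It does not compare one tumor with the other. With the Shannon measure the effective number differed by 3.93 in place of 1.62. Length, pseudogenes, the limit of 1 TPM and merging changed no direction of a share result. The overlap of shares between the tumors (1.69%) ranged from 1.62% to 2.15%, and the count of genes that differed between the tumors had no alternative. Depth limits the low values, since a TPM of 0 has no stated limit of detection here.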

Other observations

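The 70 Ighv pseudogenes summed to at most 2.21 TPM in any library, reached in Tom+ cells of tumor #2, where the functional V genes summed to 5951 TPM. In kappa V genes, the leading gene's share of the summed Igkv TPM was 58.4% in Tom- and 32.5% in Tom+ cells of tumor #2 (the same gene in both), and the number of Igkv genes at 10 TPM or more was 8 and 33. In tumor #1, where different genes led the fractions, the leading share was 49.8% and 50.4%, with 3 and 5 genes at 10 TPM or more. The effective number of Igkv genes there was 2.03 in Tom- and 2.06 in Tom+ cells. In each fraction a second gene was thus close to the leader. Whether the fractions shared these genes was not compared, so the change of leader is not read either way.

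In Tom+ cells of tumor #1, 13 Ighv genes were at 1 TPM or more, and 8 of them were also at 1 TPM or more in Tom+ cells of tumor #2. Of all 113 Ighv genes, 41 were at 1 TPM or more in that library, and whether the overlap exceeds this share was not tested. In Tom- cells of tumor #1 and of tumor #2 the numbers at 1 TPM or more were 11 and 16. No V gene was above 0 in all 4 libraries.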
